A study of Homo sapiens with 2 samples.

Results

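The complement and acute-phase genes described here are C1R, C1S, C3, CFB, SERPING1, SERPINA1, SAA1, ORM1 and ORM2. They are 9 of the 60839 gene rows compared between RNA sequencing libraries of SUM-159, an established human cell line of triple-negative breast cancer. The rows were taken by gene symbol, and the genes had been proposed from earlier results on these same libraries, chosen by the read ratios of this very comparison, so their ratios are a description and carry no test. The PD-L1L2-SE deficient group is 1 library of cells that lack a super-enhancer which, by the study's title, guides the expression of PD-L1 with PD-L2. The sgVector control group is 1 library too. Both groups are the same cell line, and no other genotype or treatment is given in the labels. The sources used here do not give whether the deficient cells are 1 clone or a pool. CD274, the gene of PD-L1, had 0.698 RPKM from 47 reads in the deficient library and 7.16 RPKM from 477 reads in the sgVector library. PDCD1LG2, the gene of PD-L2, had 1.19 RPKM from 46 reads in the deficient library and 5.32 RPKM from 204 reads in the sgVector library.

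RPKM is a gene's read count divided by its length in kilobases and scaled to 1000000 reads on genes. The libraries held 16381546 reads on genes in the deficient cells and 16206675 in the sgVector cells. Genes of the mitochondrial genome took 6.50% of reads in the deficient library against 7.99% in the sgVector library. With 1 library per group there is no replicate check and no p-value. Fold changes are ratios of read shares, deficient over sgVector, with exact (Clopper-Pearson) 95% intervals that cover counting error only. Log2 ratios are of RPKM plus a pseudocount of 0.1, which understates the change of low genes. A gene counts as measured if its mean over both libraries was at least 1 RPKM.

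Complement is a cascade of plasma proteases. In the classical pathway the recognition protein C1q carries the proteases C1r and C1s, which cleave C4 and C2, and in the alternative pathway factor B supplies the protease. Both routes cleave C3, whose larger fragment tags surfaces for phagocytosis. Acute-phase proteins such as serum amyloid A, orosomucoid and alpha-1-antitrypsin are released mainly by the liver when cytokines of the IL-6 and IL-1 families act through STAT3, C/EBP and NF-kB factors, and epithelial and tumour cells can make several of them as well.

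RefSeq promoter sequences (build GRCh38.p14) matched 4 of the 9 genes, namely C1R, CFB, ORM1 and SERPINA1, with 6 transcript starts among them. The 250 bases before the start are shown for the gene with the largest ratio, ORM1, for CFB, and for both starts of C1R. Capitals mark matches, on either strand, to 4 patterns for factors of the acute-phase and interferon responses: TTCNNNGAA for STAT, TTNNGNAAT for C/EBP, GGG, any 5 bases and CC for NF-kB, and GAAA, any 2 bases and GAAA for the interferon-stimulated response element (ISRE).
ORM1, plus strand, chr9:114322848-114323097: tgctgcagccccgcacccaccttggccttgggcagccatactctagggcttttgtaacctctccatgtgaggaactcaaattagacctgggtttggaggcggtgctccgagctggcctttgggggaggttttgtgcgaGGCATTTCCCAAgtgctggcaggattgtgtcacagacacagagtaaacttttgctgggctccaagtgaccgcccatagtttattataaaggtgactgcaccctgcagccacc
CFB, plus strand, chr6:31945845-31946094: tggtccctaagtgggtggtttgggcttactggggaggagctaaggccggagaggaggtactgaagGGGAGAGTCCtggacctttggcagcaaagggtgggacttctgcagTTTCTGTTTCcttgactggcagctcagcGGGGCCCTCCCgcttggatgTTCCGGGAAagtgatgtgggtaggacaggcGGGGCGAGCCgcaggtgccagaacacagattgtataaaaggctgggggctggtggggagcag
C1R, first start, minus strand, chr12:7092446-7092695: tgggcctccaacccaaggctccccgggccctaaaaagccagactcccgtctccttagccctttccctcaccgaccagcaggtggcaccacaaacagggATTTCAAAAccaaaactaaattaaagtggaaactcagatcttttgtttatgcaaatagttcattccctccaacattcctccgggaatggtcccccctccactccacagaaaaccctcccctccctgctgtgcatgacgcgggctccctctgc
C1R, second start, minus strand, chr12:7091894-7092143: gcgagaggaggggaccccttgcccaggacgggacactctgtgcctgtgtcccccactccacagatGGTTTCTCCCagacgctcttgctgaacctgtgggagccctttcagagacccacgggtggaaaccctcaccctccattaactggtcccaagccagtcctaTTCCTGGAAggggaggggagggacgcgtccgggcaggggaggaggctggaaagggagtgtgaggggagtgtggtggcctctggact
The CFB stretch holds a STAT match from -92 to -84 and an ISRE match from -140 to -131, with -1 the last base before the start. The stretch also holds 4 NF-kB matches, and those from -112 to -103 and from -111 to -102 overlap. ORM1 has a C/EBP match from -109 to -101 that overlaps an NF-kB match from -112 to -103. C1R has a C/EBP match from -152 to -144 before its first start, and before its second start a STAT match from -86 to -78 and an NF-kB match from -185 to -176. No pattern matched in the 250 bases before either start of SERPINA1. Shares were taken over 35116 promoter windows, which ran from 250 bases before to 50 after the start, so they were longer than the stretches above. Of these windows, 7.66% held the STAT pattern, 11.0% the C/EBP pattern, 58.7% the NF-kB pattern and 3.57% the ISRE pattern. In the 50 bases after the start, NF-kB matches lay from 24 to 33 at the first start of C1R and from 32 to 41 at that of SERPINA1. A match is a run of letters and was not tested for binding.

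The genes spanned a wide range of levels per gene length. SAA1 was highest, at 977 RPKM in the deficient library, where it ranked 20 among all protein-coding genes, and at 592 RPKM in the sgVector library, where it ranked 30. C3 followed at 199.9 RPKM in the deficient and 159 RPKM in the sgVector library, and C1R at 66.2 RPKM in the deficient and 52.6 RPKM in the sgVector library. CFB had 24.5 RPKM in the deficient and 15.9 RPKM in the sgVector library. C1S had 16.4 RPKM in the deficient and 16.0 RPKM in the sgVector library, and SERPINA1 8.90 RPKM in the deficient and 11.0 RPKM in the sgVector library. In the sgVector library C1S and CFB could not be put in order, since their counting intervals overlapped (15.2 to 16.7 and 15.0 to 16.8 RPKM). ORM1, ORM2 and SERPING1 were the lowest in both libraries. Their intervals overlapped in the sgVector library, where they had 2, 2 and 5 reads. ORM2 and SERPING1 averaged under 1 RPKM, so 7 of the 9 genes count as measured.

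**Figure D1:**
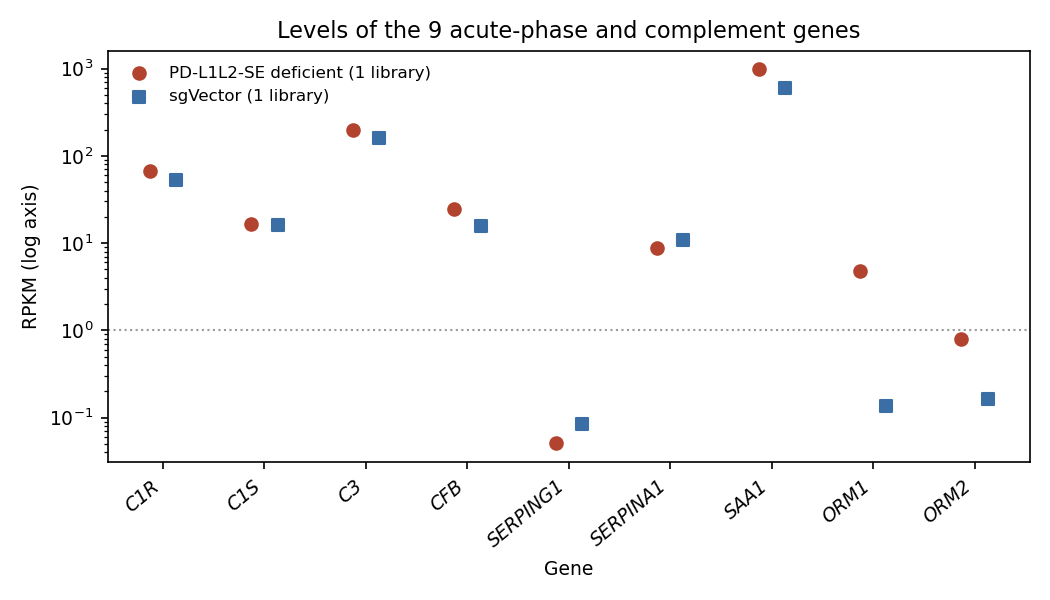
RPKM (log axis) of each gene in the deficient library (circles) and the sgVector library (squares), 1 library each, with a dotted line at 1 RPKM. SAA1 stands at 977 RPKM in the deficient and 592 RPKM in the sgVector library, and SERPING1 lies below 0.1 RPKM in both libraries.

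Together the 9 genes took 3031 reads per 1000000 in the deficient library (3004 to 3058), against 2280 in the sgVector library (2256 to 2303), a ratio of 1.33 (1.31 to 1.35). In bulk RNA, more cells that express a gene and more RNA per cell cannot be told apart. C3 and SAA1 held 80.6% of these reads in the deficient library against 78.8% in the sgVector library. The other 7 genes alone gave a ratio of 1.22 (1.18 to 1.25). C1R held most of their reads, 5092 of 9637 in the deficient library and 4005 of 7845 in the sgVector library. Of the 7 measured genes, 1 passed 2-fold upward in the deficient library, ORM1, and 0 passed it downward. ORM1 had 4.81 RPKM in the deficient and 0.137 RPKM in the sgVector library. It counts as measured only through the library where it was high, so its place past 2-fold is tied to the floor. Over all 13552 measured genes 3.03% passed 2-fold upward and 4.69% downward. The counting interval lay wholly above no change for 5 of the 7 and wholly below it for 1, against 25.9% above and 32.6% below over all measured genes. The median log2 ratio was 0.33 for the 7 genes and -0.05 for all measured genes. Since the genes were proposed from this comparison, these counts are no evidence about the group.

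**Figure D2:**
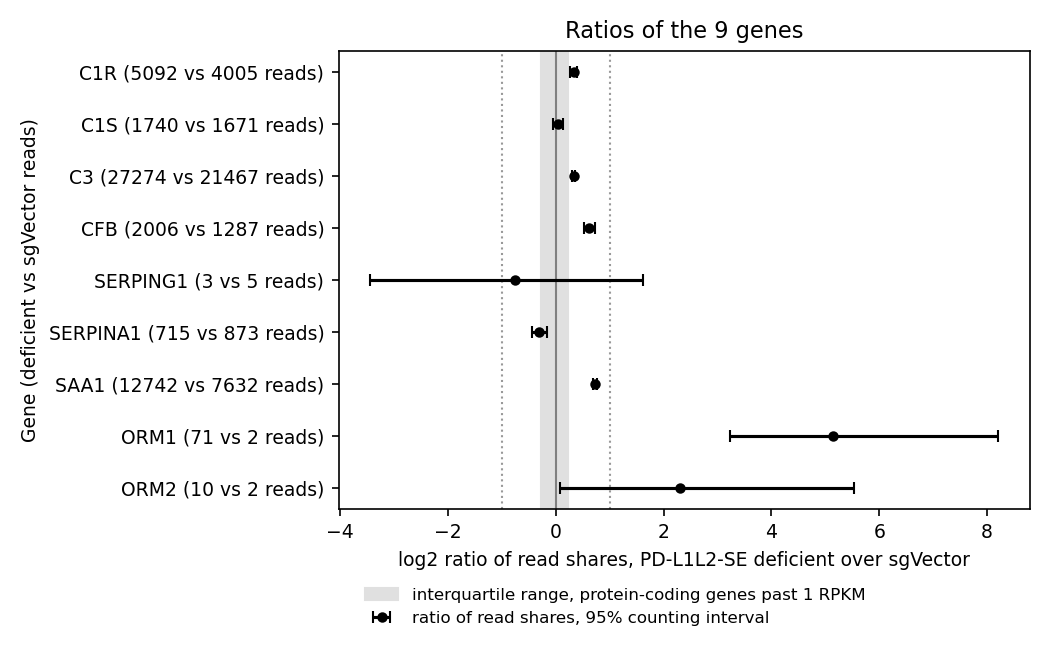
Log2 ratio of read shares, deficient over sgVector, for each gene with its 95% counting interval, and the reads behind it in the deficient and the sgVector library. The grey band spans the quartiles of measured protein-coding genes and dotted lines mark 2-fold; ORM1, ORM2, SAA1, CFB, C1R and C3 lie to the right of no change with their whole interval.

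The classical pathway proteases had unequal ratios. C1R (ENSG00000159403, hg19 chromosome 12, 7187513 to 7245203), which activates C1s, had 5092 reads in the deficient library against 4005 in the sgVector library, a ratio of 1.26 (1.21 to 1.31). C1S (ENSG00000182326, chromosome 12, 7096351 to 7178336), which cleaves C4 and C2, had 1740 reads in the deficient library against 1671 in the sgVector library, a ratio of 1.03 whose interval spans no change (0.96 to 1.10). The intervals of C1R and C1S did not overlap although the genes are neighbours. Per gene length, C1R stood at 4.03 times the level of C1S in the deficient library and 3.30 times in the sgVector library. The C1R row shares 672 exon bases (14.3% of its length) with C1RL and the C1S row 229 with EMG1, so reads there are uncertain. SERPING1 (ENSG00000149131, chromosome 11, 57364860 to 57382326) encodes the C1 inhibitor, the serpin that inactivates C1r and C1s. It had 3 reads in the deficient library against 5 in the sgVector library, a ratio of 0.594 with an interval from 0.0922 to 3.05, so no difference was detectable at this depth.

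C3 (ENSG00000125730, chromosome 19, 6677715 to 6730573), where the pathways meet, had the most reads of the group, 27274 in the deficient library against 21467 in the sgVector library. Its ratio of 1.26 (1.23 to 1.28) was almost that of C1R. CFB (ENSG00000243649, chromosome 6, 31913427 to 31919861), which encodes factor B, the protease of the alternative C3 convertase, had 2006 reads in the deficient library against 1287 in the sgVector library. At 1.54 (1.44 to 1.66) it was the complement gene with the highest ratio of the 4 measured here. C3 stood at 8.16 times the level of CFB per gene length in the deficient library and 10.0 times in the sgVector library. A read-through row that joins C2 to CFB shares 2249 of the 4997 exon bases of CFB and is listed at 0 reads in both libraries, so the level of CFB is uncertain.

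Among the acute-phase genes SAA1 and ORM1 were higher in the deficient library and SERPINA1 was lower. SAA1 (ENSG00000173432, chromosome 11, 18287721 to 18291524), which encodes an apolipoprotein carried on high-density lipoprotein, had 12742 reads in the deficient library against 7632 in the sgVector library, a ratio of 1.65 (1.61 to 1.70). SAA2, its close paralog, had 3993 reads in the deficient library against 2288 in the sgVector library, a ratio of 1.73 (1.64 to 1.82). The similar sequences make the split of reads between them uncertain, but their sum gave 1.67 (1.63 to 1.71). SAA4, the constitutive member of the cluster, had 165 reads in the deficient library against 131 in the sgVector library, with an interval that spans no change (0.985 to 1.58).

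ORM1 (ENSG00000229314, chromosome 9, 117085336 to 117088755) and ORM2 (ENSG00000228278, chromosome 9, 117092149 to 117095532) encode orosomucoid, a lipocalin of plasma that binds drugs and other small molecules. ORM1 had 71 reads in the deficient library against 2 in the sgVector library, a ratio of 35.1 (9.37 to 296). ORM2 had 10 reads in the deficient library against 2 in the sgVector library, a ratio of 4.95 (1.05 to 46.4). The paralogs share most of their sequence and their reads may be exchanged. Summed, they had 81 reads in the deficient library against 4 in the sgVector library, a ratio of 20.0 (7.53 to 75.3). The log2 ratio of ORM1 was 4.37, or 2.35 with a pseudocount of 1 RPKM. Even in the deficient library the pair took only 4.94 reads per 1000000. SERPINA1 (ENSG00000197249, chromosome 14, 94843084 to 94857030), which encodes alpha-1-antitrypsin, the inhibitor of neutrophil elastase, went the other way. It had 715 reads in the deficient library against 873 in the sgVector library, 1.23-fold lower (1.12 to 1.36).

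C3, CFB, ORM1 and ORM2 each had a higher ratio than the measured genes beside them that are no member. The members were chosen by these same ratios, so such a contrast is partly built in and is no evidence about them. ORM1 counts as measured only through the deficient library, and ORM2 averaged under 1 RPKM. The nearest 2 measured protein-coding genes on each side of every member made 28 genes that are no member, with log2 ratios from -0.95 to 0.79 and a median of -0.06, none of them past 2-fold. All 4 neighbours of C3 had log2 ratios below 0, namely TNFSF9 (-0.29), CD70 (-0.65), GPR108 (-0.37) and TRIP10 (-0.22), while C3 stood at 0.33. The same held for CFB at 0.62, whose neighbours EHMT2, ZBTB12, NELFE and SKIC2 stood at -0.36, -0.14, -0.54 and -0.26. Among these neighbours of C3 and CFB, the counting intervals of TNFSF9 (0.630 to 1.05) and ZBTB12 (0.657 to 1.25) span no change. Around the ORM genes COL27A1 stood at -0.47, ZNF618 at 0.18, AKNA at 0.31 and WHRN at 0.02. SAA1 at 0.72 had SAA2 (0.79) and SAA4 (0.31) on one side and HPS5 (-0.09) and GTF2H1 (0.11) on the other. C1RL and RBP5 beyond C1R stood at -0.03 and 0.72, and LPCAT3 and EMG1 by C1S at 0.31 and -0.73. UBE2L6 and SMTNL1 on one side of SERPING1 stood at 0.04 and -0.95, and CLP1 and ZDHHC5 on the other at 0.09 and 0.45. SERPINA1 at -0.30 lay between PPP4R4 (-0.18) and IFI27L2 (-0.66) on one side and DICER1 (0.62) and CLMN (0.05) on the other. The gaps to these were 97.0, 246, 696 and 791 kilobases, so the nearest measured genes need not be adjacent. ZNF618 lay 266 kilobases from ORM1 and TNFSF9 142 kilobases from C3. Some neighbours, such as GPR108 at C3, overlapped the span of the member.

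**Figure D3:**
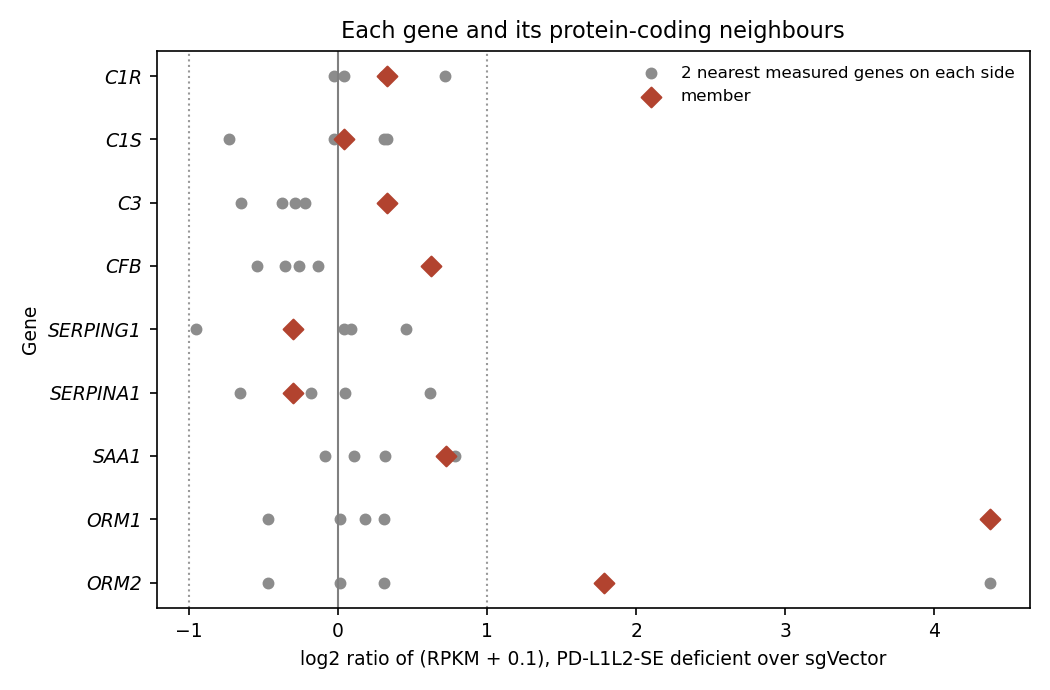
Log2 ratio of (RPKM + 0.1), deficient over sgVector, of each gene (diamonds) and of the nearest 2 measured protein-coding genes on each side (grey circles), with dotted lines at 2-fold. The neighbours of C3 and CFB all lie left of 0, and ORM1, at 4.37, appears again as a neighbour of ORM2.

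Other acute-phase genes had ratios on both sides of no change. Of 39 listed, 11 were measured, 3 of them past 2-fold upward, 1 past it downward and 7 within it, with a median log2 ratio of 0.48. S100A9, a subunit of the neutrophil protein calprotectin, had 202 RPKM in the deficient library and 78.3 RPKM in the sgVector library, a ratio of 2.59 (2.37 to 2.82). AGT, the gene of angiotensinogen, was 2.66-fold higher (1.98 to 3.63) and VNN1, which encodes a pantetheinase, 2.09-fold higher (1.80 to 2.42). PTX3, a pentraxin that binds C1q, was 2.16-fold lower (1.72 to 2.72). A pseudocount of 1 RPKM brought VNN1 and PTX3 short of 2-fold, to log2 ratios of 0.94 and -0.93.

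The rest of the complement system was little represented. Of 25 other genes of complement activation 2 were measured, C1RL at -0.03 and CFD, the protease that cleaves factor B, at 0.15. The C1q chain genes C1QA, C1QB and C1QC had 0 reads in both libraries, which allows up to 0.183 reads per 1000000 in the deficient library against 0.185 in the sgVector library. Of 29 regulators and receptors 6 were measured and 0 were past 2-fold, with a median of 0.12. The membrane regulators CD46, CD55 and CD59, which protect cells from their own complement, stood at 0.25, 0.16 and 0.08. C1QBP stood at -0.04, and CLU, the gene of the terminal complex inhibitor clusterin, at -0.87.

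Of 33 other serpin genes 10 were measured, 2 of them past 2-fold upward and 0 downward, and their median log2 ratio was 0.32. SERPINB3 and SERPINB4, near-identical paralogs that encode the squamous cell carcinoma antigens, were 3.77-fold higher (3.40 to 4.20) and 3.63-fold higher (3.41 to 3.87). SERPINB5 stood at 0.80, SERPINB6 at 0.21 and SERPINE2 at 0.06.

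Cytokines, receptors and factors that induce acute-phase genes made a list of 38, of which 29 were measured. In this list 1 gene passed 2-fold upward and 1 downward, 23 were above 0, and the median was 0.26. IRF1, an interferon-induced transcription factor, had a log2 ratio of 1.01, a ratio of 2.02 (1.86 to 2.20). IL6ST, the signalling receptor shared by the IL-6 family, stood at 0.91 and LIFR, the LIF receptor, at 0.74. LIF, a cytokine of that family, was 2.23-fold lower (1.75 to 2.87), IL1B stood at -0.73 and NFKB2 at -0.37. With a pseudocount of 1 RPKM neither IRF1 (0.92) nor LIF (-0.80) stayed past 2-fold, and without mitochondrial genes IRF1 stood at 0.98. CEBPA, a factor of the liver, had 0 reads in both libraries. CEBPB, CEBPD, STAT3 and IL6, named here for their known part in the acute phase after their values were seen, stood at 0.73, 0.36, 0.26 and 0.27.

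**Figure D4:**
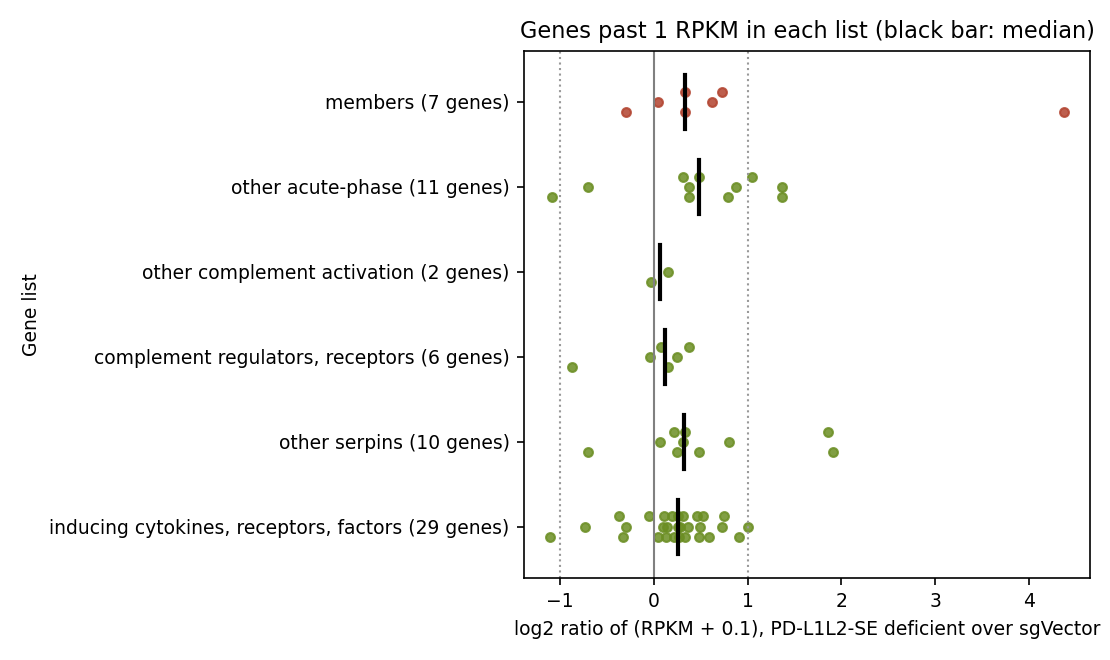
Log2 ratio of (RPKM + 0.1), deficient over sgVector, of measured genes in each list (points) with the list median (black bar) and dotted lines at 2-fold. The medians run from 0.06 in other complement activation genes (2 genes) to 0.48 in other acute-phase genes (11 genes), and ORM1 stands alone at 4.37.

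Cell type markers were read beside these lists. Of 18 hepatocyte markers 0 were measured, 6 were at 0 reads in both libraries, APOB, TTR and AHSG among them, and their summed level was 0.929 RPKM in the deficient library and 0.555 RPKM in the sgVector library. Of 12 matched macrophage markers CD14 alone was measured, with 476 reads in the deficient library against 337 in the sgVector library, and the list summed to 15.9 RPKM in the deficient and 11.7 RPKM in the sgVector library. AIF1, TYROBP and the C1q chains were at 0 in both. Of 7 matched endothelial markers ERG alone was measured, and the list summed to 1.501 RPKM in the deficient and 1.36 RPKM in the sgVector library, with TEK at 0 in both. All 8 mesenchymal markers were measured, with a sum of 873 RPKM in the deficient and 1196 RPKM in the sgVector library. VIM alone had 389.7 RPKM in the deficient and 746 RPKM in the sgVector library, and the other 7 summed to 484 RPKM in the deficient and 450.1 RPKM in the sgVector library. Of the 8 log2 ratios 4 were above 0 and 4 below, with a median of -0.01. Of 10 epithelial and luminal markers 5 were measured, with PGR at 0 in both libraries. The list summed to 48.6 RPKM in the deficient and 57.2 RPKM in the sgVector library. Of the 5 log2 ratios 1 was above 0 and 4 below, with a median of -0.27. The part of the marker levels in the ratios was not tested.

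The genes nearest to each measured member in level were taken by the summed absolute difference of log2(RPKM + 0.1) over the 2 libraries. They were SLC2A4RG, EIF3E and CMPK1 for C1R, CIC, FIBP and CCAR1 for C1S, and TPM4, IFITM1 and HLA-C for C3. For CFB they were RIPK2, PTDSS1 and ARHGAP35, for SERPINA1 NUMB, PSMD6 and RBMX2, and for SAA1 IFITM3, RPL19 and IRX2. The genes of SAA1 were not close, at distances of 0.32, 0.68 and 0.88, against 0.01, 0.03 and 0.05 for those of C1R. Their log2 ratios were 0.41, 0.04 and -0.15, against 0.72 for SAA1. ORM1 was nearest to ACKR1 (5.68 RPKM in the deficient and 0.182 RPKM in the sgVector library), CPVL and GPC6, at distances of 0.49, 0.79 and 0.98. The distance uses both libraries, so a ratio like that of the member is built in. The sgVector level of ORM1 rests on 2 reads.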

How the data were processed

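RNA of SUM-159 cells was sequenced in 2 libraries, 1 per group. The authors deposited RPKM values with 1 column per library, beside each gene's length and exon positions, per the file headers. The submitters' processing notes name featureCounts 1.6.4, Subread and the builds hg19 and GRCh37. The sources used here do not give the annotation release or the strand setting, so genes that overlap are uncertain.

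Steps of RPKM times length gave whole reads for 100% of values (within 1e-06, relative). Symbols came from a gene name table (92.7% of 60880 rows), gene types and GC content from GENCODE release 29 by identifier, and promoters from RefSeq. Left out were 41 chromosome Y rows of pseudoautosomal genes. The members and lists were chosen with earlier results of these data known. Named were the members, their neighbours and nearest genes in level, and in each list the 3 highest, the 3 lowest and all genes past 2-fold, except a few not reported here. A gene past 2-fold had a log2 ratio from 1 upward or from -1 downward. Exact intervals cover counting error only, since each group has 1 library. PCR reads are not independent molecules, so the intervals may be too narrow even for that error. The steps were run on simulated libraries with set fold changes and counting error alone. Such data cannot show how well the intervals hold for the spread between real libraries. Alternatives covered the pseudocount, floor, threshold, scaling, GC content and length (lowess share 0.3). Tools were matplotlib 3.10.9, numpy 2.4.6, scipy 1.17.1, pandas 2.3.3 and statsmodels 0.14.6 under Python 3.11.15.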

Additional observations from a re-analysis of the deposited data

How the results depend on the processing

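No paired analysis was possible because each group has 1 library. Of 76 log2 ratios of the members and of their summed reads under alternatives, 61 stayed within the counting interval, 15 moved out of it, and 0 of the called ones changed sign. C3, at 0.33, moved to 0.38 centred on the median, 0.37 as TPM, 0.41 with the trimmed mean of M values (TMM), 0.38 with upper-quartile scaling and 0.39 with the GC and length correction. SAA1, at 0.72, moved to 0.77 when centred, 0.77 as TPM, 0.80 with TMM, 0.77 with the upper quartile and 0.85 with the correction. C1R, at 0.33, moved to 0.41 with TMM and 0.43 with the correction. ORM1, at 4.37, moved to 2.35 with a pseudocount of 1 RPKM. The summed log2 ratio of 0.41 moved to 0.28 without SAA1 and C3 and to 0.39 without mitochondrial genes, both chosen after seeing the data.

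The 411 higher and 636 lower genes became 115 and 152 when the floor was 5 RPKM, 642 and 1138 when it was 0.5 RPKM, and 2575 and 3711 without one. Protein-coding genes alone gave 222 and 219. The counts were 1123 and 1703 at 1.5-fold, 85 and 131 at 4-fold, and 215 and 344 with a pseudocount of 1 RPKM. With the interval wholly past 2-fold they were 165 and 160, and with the interval wholly past no change, chosen after seeing the data, 3515 and 4417. By construction each setting changes how many genes are admitted or called.

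Among other acute-phase genes the 1 lower gene became 2 when the floor was 0.5 RPKM and 0 with a pseudocount of 1 RPKM. Among other serpins the 0 lower became 1 with a floor of 0.5 RPKM. VNN1 fell short of 2-fold with a pseudocount of 1 RPKM (0.94) and with the correction (0.94). The count of higher genes among other acute-phase genes was 2 with that pseudocount. It stayed at 3 with the correction, where another listed gene passed 2-fold. Among inducers the 1 higher became 0 with a pseudocount of 1 RPKM and 2 with the correction, and the 1 lower became 0 with either; the cause was not tested for the correction. Depth limits ORM1, ORM2 and SERPING1, with 2 to 5 reads in the sgVector library.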
